A study of Homo sapiens with 16 samples.

Results

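The genes of the insulin-like growth factor (IGF) system were followed in 16 RNA-seq libraries of cultured mesenchymal stem cells (MSCs). They are the ligands IGF1 and IGF2, the receptor IGF1R and the binding proteins IGFBP1, IGFBP2, IGFBP3, IGFBP4, IGFBP5, IGFBP6 and IGFBP7. These 10 members were chosen by name from the 60649 genes of the deposited table, whose Ensembl identifiers were given symbols from GENCODE v44, and all 10 were found. The cells were ASC52telo, a wild-type adipose MSC line immortalized with telomerase, so every group is 1 line. Cells were kept without mitomycin C (MmC) or were exposed to 1.5 µg/mL MmC, an agent that alkylates DNA, for 18 h to make them senescent. Recombinant growth differentiation factor 11 (GDF11), a cytokine of the TGF-beta family, was left out or was added to 10 ng/mL during the next 10 days, and RNA was taken at the end of them. The 4 groups are young cells without GDF11 (MmC-/GDF11-), young cells with it (MmC-/GDF11+), senescent cells without it (MmC+/GDF11-) and senescent cells with it (MmC+/GDF11+), with 4 replicates each. The study calls them biological replicates. They come from 1 line, and p-values measure only the spread between these cultures.

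IGF1 and IGF2 are secreted growth factors that act through the tyrosine kinase receptor IGF1R to promote growth and survival. The binding proteins are secreted as well, hold the ligands outside the cell and release them when proteases cut them. IGFBP4 is known chiefly as an inhibitor of IGF action that the metalloprotease PAPPA cleaves, and several binding proteins, IGFBP3 and IGFBP7 among them, are known as secreted products of senescent fibroblasts and stromal cells.

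The DNA just before the start sites of 3 genes on which the comparisons below turn is shown first, as IGFBP4 and PAPPA were higher and IGFBP3 was lower after MmC. Promoter sequences come from RefSeq on GRCh38.p14, where 7 of the 10 members had an entry. Each sequence below is the 150 bases before the start site on the strand of the gene, and the start site is the base after its last letter. Capitals mark the TATA motifs TATAAA and TATATA, and the GC box GGGCGG found on either strand. The IGFBP4 stretch is chr17:40443300-40443449 on the plus strand, that of PAPPA is chr9:116153641-116153790 on the plus strand, and that of IGFBP3 is chr7:45921273-45921422 on the minus strand.
IGFBP4: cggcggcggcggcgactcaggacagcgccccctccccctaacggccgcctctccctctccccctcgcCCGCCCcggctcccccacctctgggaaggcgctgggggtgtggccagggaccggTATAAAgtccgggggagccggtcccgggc
PAPPA: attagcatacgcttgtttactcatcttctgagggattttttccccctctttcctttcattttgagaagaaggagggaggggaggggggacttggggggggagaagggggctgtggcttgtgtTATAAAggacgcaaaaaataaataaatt
IGFBP3: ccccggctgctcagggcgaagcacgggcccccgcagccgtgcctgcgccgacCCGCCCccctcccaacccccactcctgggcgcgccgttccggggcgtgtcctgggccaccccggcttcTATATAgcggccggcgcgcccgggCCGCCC
IGFBP4 held TATAAA from position -29 to -24 and a GC box from -83 to -78, counted back from -1 at the last base. PAPPA held TATAAA from -28 to -23 and no GC box. IGFBP3 held TATATA from -30 to -25 and GC boxes from -98 to -93 and from -6 to -1. Of 35114 promoter entries, 10.7% held TATAAA, 3.73% TATATA and 42.6% GGGCGG on either strand in the 250 bases before the start. The GC box is thus common. The share of entries with a TATA motif at the positions seen here was not computed. Of the members with an entry and PAPPA, only the 3 genes shown held a TATA motif in the 250 bases. IGF1R, IGFBP2 and IGFBP6 held GC boxes only, and IGF1 and IGFBP5 held neither. IGF1R was also higher after MmC, and no link between motif and change was tested. These motifs do not overlap each other in the 3 stretches, and a match is a run of letters, not a shown binding site.

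The authors deposited read counts per gene, which were scaled to each library's total after TMM correction and are given as CPM. Library totals lay between 71275337 and 144204979 counts, so that a count of 0 allows a level of up to 0.0208 to 0.0421 CPM (3 counts, counting error only). The MSC markers NT5E, THY1, ENG, CD44 and ITGB1 were at 551 to 942, 546 to 1429, 507 to 623, 859 to 1375 and 1636 to 2717 CPM. The haematopoietic markers PTPRC and CD14 summed to 1.61 to 2.62 CPM in the MmC- libraries and 2.38 to 5.35 CPM in the MmC+ libraries, the 3 endothelial markers to 7.82 to 11.2 CPM in the MmC- libraries and 8.34 to 21.7 CPM in the MmC+ libraries, the 3 adipocyte markers to 0.0134 to 0.141 CPM in the MmC- libraries and 0.257 to 1.44 CPM in the MmC+ libraries, and the 3 epithelial markers to 37.3 to 59.1 CPM in the MmC- libraries and 9.35 to 21.2 CPM in the MmC+ libraries. ADIPOQ was at 0 in 9 libraries and EPCAM in 6, while CD14, PECAM1, VWF and LEP were higher and CDH5 and KRT18 lower after MmC. With GDF11, PTPRC and the scarce PLIN1 were called higher as well. KRT18, at 8.83 to 58.0 CPM, made up most of the epithelial sum, as CDH1 reached at most 1.11 CPM. Of the 5 MSC markers, 2 were called higher after MmC without and 3 with GDF11, where 45.3% and 46.7% of all genes were called. The part of these markers in the results was not tested. CDKN1A, a p53 target, rose after MmC from a range of 166 to 375 CPM to 1040 to 2031 CPM, and the proliferation markers MKI67 and TOP2A summed to 207 to 428 CPM in the MmC- libraries and 39.996 to 120.2 CPM in the MmC+ libraries. In bulk RNA, fewer cells that express a gene and less RNA per cell cannot be told apart.

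Per length of exon, IGFBP3 to IGFBP7, 5 of the 7 binding proteins, exceeded the ligands and the receptor in every group, whereas IGFBP1 and IGFBP2 lay below the receptor. In MmC-/GDF11- cells the mean level, in CPM per kb of merged exon ± SD (n = 4), was 705 ± 196 for IGFBP6 and 604 ± 150.4 for IGFBP4, and the ranges of these 2 overlapped. IGFBP3 followed at 315 ± 44.8, IGFBP7 at 127 ± 48.0 and IGFBP5 at 37.6 ± 21.7, each without overlap with the next. IGF1R was at 2.43 ± 0.304 CPM per kb. IGF1, at 0.0275 ± 0.0345, and IGFBP1, IGFBP2 and IGF2 were each under 0.03 CPM per kb on average and overlapped one another in the order given. The same order was seen in MmC-/GDF11+ cells. After MmC, IGFBP4 stood first in both groups, at 1507 ± 370.1 CPM per kb without and 1472 ± 262 with GDF11, and overlapped no other member. IGFBP7 and IGFBP3 had changed places, at 311 ± 114 and 190.4 ± 70.7 CPM per kb without GDF11, but their ranges overlapped. With the longest transcript as the length, IGFBP3 came to 548 ± 77.8 CPM per kb in MmC-/GDF11- cells and then overlapped IGFBP4, with the order of the means unchanged.

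The make-up of the binding protein transcripts moved with MmC. IGFBP4 made up 33.8 ± 3.32% (SD, n = 4) of the summed CPM per kb of IGFBP1 to IGFBP7 in MmC-/GDF11- cells and 55.9 ± 9.21% in MmC+/GDF11- cells. IGFBP6 went from 39.1 ± 3.90% to 23.4 ± 5.57%, IGFBP3 from 18.1 ± 3.06% to 7.16 ± 2.70% and IGFBP7 from 7.02 ± 1.45% to 11.8 ± 4.88%. With GDF11 the shares were 33.0 ± 2.69% and 55.9 ± 8.84% for IGFBP4, 40.9 ± 3.49% and 23.7 ± 5.61% for IGFBP6, 16.9 ± 3.29% and 7.38 ± 2.60% for IGFBP3, and 7.10 ± 2.77% and 11.3 ± 4.92% for IGFBP7. Not divided by length, the 7 binding proteins together were at 4210.5 ± 864 CPM in young and 5898 ± 639.8 CPM in senescent cells without GDF11, and at 4109.9 ± 448 and 5830.1 ± 435 CPM with it. A share also moves when another binding protein changes, and IGFBP6 itself did not pass the test after MmC in either arm, as given below. The shares depend on the length used as well. Not divided by length, IGFBP3 made up 27.7 to 39.6% and IGFBP6 19.1 to 25.6% in MmC-/GDF11- cells, the reverse order. Shares and sums are given as a description, without a test.

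**Figure D1:**
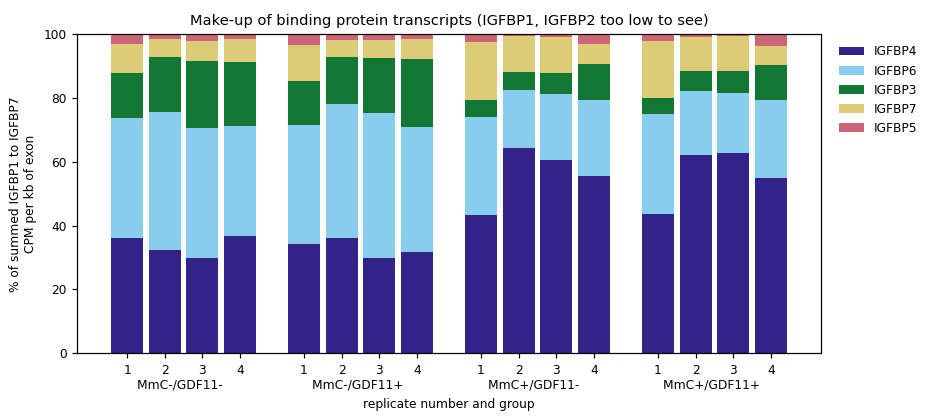
Stacked bars give, for each of the 16 libraries (x axis, replicate number and group), the percent of the summed IGFBP1 to IGFBP7 level, in CPM per kb of exon, that each binding protein made up (y axis). The IGFBP4 segment averages 33.8 ± 3.32% in MmC-/GDF11- and 55.9 ± 9.21% in MmC+/GDF11- cells, and in each MmC+ group replicate 1 has the lowest IGFBP4 share.

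The first comparison asked how senescent cells differ from young ones, once in cells without GDF11 and once in cells with it, 4 libraries against 4. IGFBP4 and IGFBP7 rose about as much in both arms, by 2.49-fold and 2.45-fold without GDF11, and IGF1R rose by 1.36-fold. IGFBP3 fell in cells without GDF11, and IGFBP5 and IGFBP6 did not pass the test in either arm. The ligands were scarce, with IGF1 near the limit of counting in most young cells and IGF2 at 0 counts in 14 of 16 libraries. Of the 6 members with at least 10 counts in every library, 3 were higher, 1 lower and 2 not called without GDF11 at an adjusted p under 0.05, where 45.3% of all 19103 tested genes were called (22.9% higher, 22.4% lower). With GDF11, 3 of the 6 were higher and 3 not called, where 46.7% of all genes were called (23.4% higher, 23.3% lower). The median log2 fold change of these 6 was 0.31 without and 0.38 with GDF11, against -0.01 over all tested genes in both. All tested genes include scarcer ones than these 6, so the shares are not a like measure. With 6 genes, these counts are no sign that the IGF members differ from other genes. IGF1 and IGFBP2 also passed the filter on low counts, but through their MmC+ libraries, a choice that favours a difference, so they are described apart and are not counted here. IGF2 and IGFBP1 did not pass it.

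**Figure D2:**
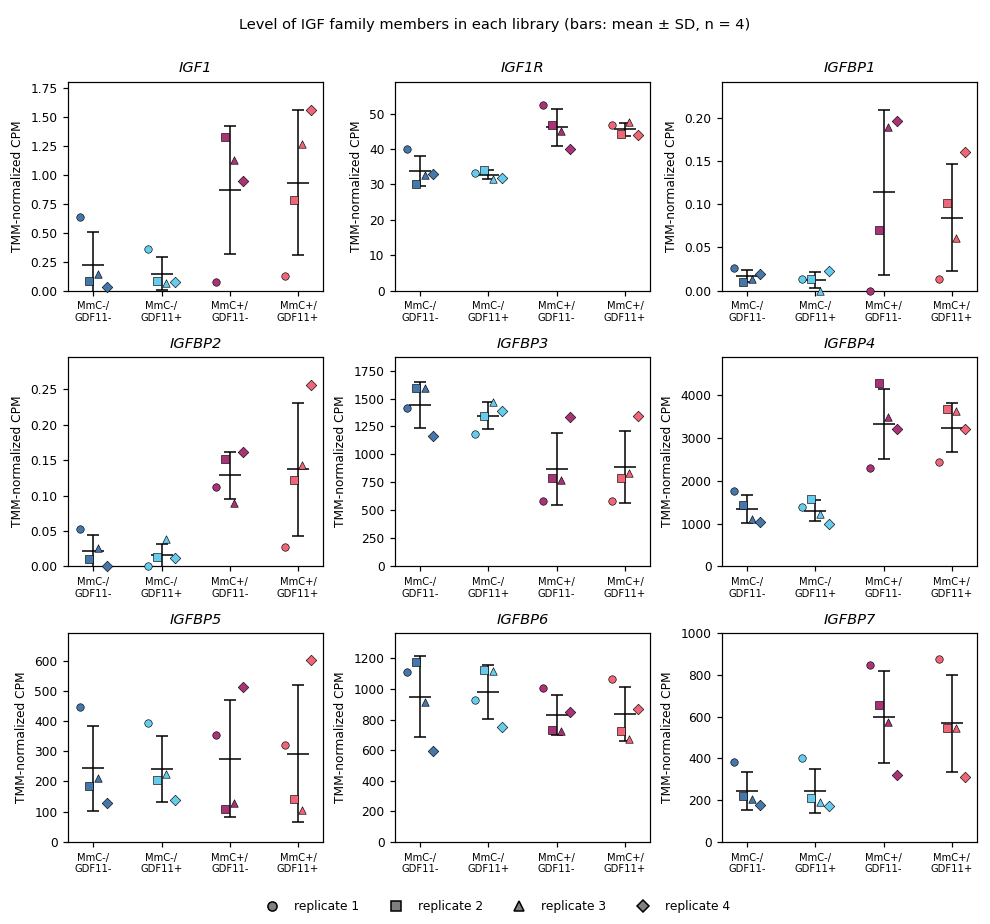
Each panel plots the TMM-normalized CPM (y axis, from 0) of 1 IGF member in the 16 libraries by group (x axis), with a marker shape for each replicate number and bars for the mean ± SD (n = 4). IGFBP4 is the member whose MmC+ libraries, at 2308 to 4286 CPM, lie clear of the MmC- libraries in both arms, while IGF1 is lower after MmC in replicate 1 and higher in the other 3, and in IGFBP3 senescent replicate 4 lies among the young libraries.

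Among the ligands, IGF2 (ENSG00000167244.21, chr11:2129112-2158391 of hg38), a growth factor best known from fetal growth, was practically not detected. It had 1 count in replicate 1 of MmC+/GDF11-, 1 in replicate 1 of MmC+/GDF11+ and 0 in the other 14 libraries, all under the level a count of 0 allows. Of its exonic bases, 43.2% also belong to other genes on the same strand, such as INS-IGF2, which had 0 counts in every library.

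IGF1 (ENSG00000017427.17, chr12:102395874-102481744), the main postnatal ligand, had 0.637, 0.0828, 0.144 and 0.0289 CPM in young cells without GDF11, given from replicate 1 to replicate 4 here and below. Young cells with GDF11 had 0.361, 0.0805, 0.0639 and 0.0782 CPM. Senescent cells had 0.0709, 1.33, 1.13 and 0.944 CPM without and 0.123, 0.783, 1.27 and 1.56 CPM with GDF11. Replicates 2, 3 and 4 were thus all higher after MmC, whereas replicate 1 was the highest of each MmC- group and the lowest of each MmC+ group, so that the groups overlapped. Without GDF11 the log2 fold change was 2.00 (SE 0.916, 95% interval 0.05 to 3.95), which did not pass the test (edgeR's quasi-likelihood test, adjusted p = 0.0872). With GDF11 it was 2.71 (SE 0.962, adjusted p = 0.0311), which passed, but IGF1 came into the test through its MmC+ libraries. Replicate 1 decides this value. With replicate 1, the only one to go the other way, left out of all 4 groups the log2 fold changes were 3.78 and 4.00. The filter took in IGF1 by its MmC+ libraries, which favours a difference, so no p-value of IGF1 here is support for a rise. Without GDF11, leaving out replicate 1 of MmC-/GDF11- alone gave an adjusted p of 0.0141, and of MmC+/GDF11- alone 0.0300. With GDF11 the call was lost when any 1 of replicates 2, 3 and 4 of MmC-/GDF11+ and replicates 3 and 4 of MmC+/GDF11+ was left out (adjusted p 0.0652 to 0.0814), and MmC-/GDF11+ replicate 1 left out moved the log2 fold change to 3.66. IGF1 had 3 to 186 counts in a library, and 82.5% of its exonic bases lie under exons of HELLPAR on the other strand, which had 15 to 49 counts.

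The receptor IGF1R (ENSG00000140443.15, chr15:98648539-98964530), which carries the growth signal of both ligands into the cell, had 39.9, 29.99, 32.7 and 32.9 CPM in MmC-/GDF11- and 52.5, 46.8, 45.2 and 39.9 CPM in MmC+/GDF11- cells. With GDF11 it had 33.3, 34.2, 31.6 and 31.8 CPM in young and 46.8, 44.2, 47.5 and 43.8 CPM in senescent cells. The libraries with GDF11 did not overlap, and those without it met only at 39.9 CPM, where the highest MmC- and the lowest MmC+ library were equal to 3 digits. Its level rose by a log2 fold change of 0.44 (SE 0.0955, adjusted p = 0.00137) without and 0.48 (SE 0.0956, adjusted p = 0.000771) with GDF11. Both changes are under 2-fold and had the smallest SE among the members.

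IGFBP4 (ENSG00000141753.7, chr17:40443450-40457725) has the TATA motif and GC box shown above and is a binding protein that keeps IGF from its receptor. In MmC-/GDF11- cells it had 1756, 1435, 1100.4 and 1038 CPM and in MmC+/GDF11- cells 2308, 4286, 3488 and 3206 CPM. With GDF11 it had 1392, 1582, 1216 and 1000.1 CPM in young and 2439, 3682, 3643 and 3218 CPM in senescent cells. Every senescent library stood above every young one. The log2 fold change was 1.32 (SE 0.214, adjusted p = 0.000141) without and 1.32 (SE 0.214, adjusted p = 0.000136) with GDF11. Among the 6 well counted members, IGFBP4 alone had groups without overlap in the arm without GDF11, where 37.3% of all genes had none (19.1% higher). With GDF11 the 2 such members were IGFBP4 and IGF1R, where 41.5% of all genes had none (20.2% higher).

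IGFBP7 (ENSG00000163453.11, chr4:57030773-57110385) binds IGF weakly and is a secreted matrix protein. It had 381, 218, 206 and 175 CPM in MmC-/GDF11- and 850.0, 659, 573 and 319 CPM in MmC+/GDF11- cells, and with GDF11 399.9, 211, 192 and 173 CPM in young and 875, 548, 545 and 309 CPM in senescent cells. Replicate 1 was the highest and replicate 4 the lowest library of all 4 groups. The groups overlapped only because young replicate 1 lay above senescent replicate 4. Its level rose by 1.29 (SE 0.366, adjusted p = 0.00963) and 1.22 (SE 0.366, adjusted p = 0.0129) on the log2 scale without and with GDF11. IGFBP7-AS1 and POLR2B cover 18.3% of its exonic bases from the other strand, and IGFBP7-AS1 had 17 to 139 counts against 14999 to 83915 for IGFBP7.

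IGFBP3 (ENSG00000146674.16, chr7:45912245-45921874), the main carrier of IGF in blood, went the other way. MmC-/GDF11- cells had 1414, 1592, 1595 and 1161 CPM and MmC+/GDF11- cells 588, 788, 769.6 and 1335 CPM. The values with GDF11 were 1186, 1346, 1466 and 1392 CPM in young and 582, 793, 834 and 1344 CPM in senescent cells. In both arms senescent replicates 1, 2 and 3 lay below every young library, and senescent replicate 4 lay among the young ones. IGFBP3 fell by 0.73 on the log2 scale without GDF11 (SE 0.244, adjusted p = 0.0231), and with GDF11 the log2 fold change of -0.60 (SE 0.244) did not pass the test (adjusted p = 0.0534). The call without GDF11 was lost when replicate 1, 2 or 3 of MmC+/GDF11- or replicate 2 or 3 of MmC-/GDF11- was left out, with adjusted p of 0.0589 to 0.0640. With GDF11 it passed when any 1 of replicates 1 and 4 of MmC+/GDF11- and replicate 4 of MmC+/GDF11+ was left out (adjusted p 0.00732 to 0.0361). With replicate 4 left out of all groups, a choice made after its values were seen, IGFBP3 passed in both arms, at log2 fold changes of -1.09 (adjusted p = 0.000589) and -0.83 (adjusted p = 0.00268).

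IGFBP5 (ENSG00000115461.5, chr2:216672105-216695549), a binding protein with affinity for extracellular matrix, varied more between replicates than between groups. It had 447, 183, 212 and 129.6 CPM in MmC-/GDF11- and 355, 107, 129 and 512 CPM in MmC+/GDF11- cells, and 395, 204, 223 and 138 and 322, 140.2, 104 and 603 CPM with GDF11. Replicate 4 was the lowest young library and the highest senescent library in both arms, whereas senescent replicates 1, 2 and 3 lay below the young ones of their number. The log2 fold changes of 0.18 (95% interval -1.07 to 1.44, adjusted p = 0.824) and 0.28 (-0.97 to 1.54, adjusted p = 0.721) leave room for a rise of over 2-fold in both arms and, without GDF11, for a fall of over 2-fold. Without replicate 4 in any group they were -0.50 and -0.52, still not past the test (adjusted p = 0.513 and 0.491).

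IGFBP6 (ENSG00000167779.9, chr12:53097436-53102345), which prefers IGF2 over IGF1, had 1111, 1179, 916 and 592 CPM in MmC-/GDF11- and 1008, 734, 728 and 848 CPM in MmC+/GDF11- cells. With GDF11 it had 928, 1122, 1121 and 752 and 1068, 725, 674 and 871 CPM. All ranges overlapped, and the log2 fold changes of -0.19 (95% interval -0.63 to 0.24, adjusted p = 0.466) and -0.23 (-0.67 to 0.20, adjusted p = 0.373) did not pass the test.

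IGFBP1 and IGFBP2 were present at a few counts. IGFBP2 (ENSG00000115457.10, chr2:216632828-216664436), a binding protein abundant in fetal tissues, had 4, 1, 2 and 0 counts in MmC-/GDF11- and 11, 13, 8 and 14 in MmC+/GDF11- cells, with no overlap. With GDF11 it had 0, 1, 3 and 1 counts in young and 2, 12, 21 and 24 in senescent cells, which overlapped by 1 library. Scaled by library size, the ratio of the summed counts was 6.29 (exact 95% interval 2.82 to 16.5) without and 8.87 (3.60 to 28.3) with GDF11, which covers counting error only. Leaving out MmC-/GDF11- replicate 1 moved its fitted log2 fold change from 2.58 to 3.40 without GDF11, and leaving out MmC-/GDF11+ replicate 3 moved it from 3.03 to 3.86 with GDF11. Since IGFBP2 was tested through its MmC+ libraries, no p is given. IGFBP1 (ENSG00000146678.10, chr7:45888360-45893660), a liver protein regulated by insulin, had 2, 1, 1 and 2 counts in young cells without and 1, 1, 0 and 2 with GDF11. Senescent cells had 0, 6, 17 and 17 counts without and 1, 10, 9 and 15 with GDF11. Replicate 1 of each MmC+ group was no higher than its young counterpart, and replicates 2, 3 and 4 were. The ratios were 6.39 (2.69 to 18.4) and 6.58 (2.35 to 25.5). Both genes lie at or near the limit of counting in young cells.

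**Figure D3:**
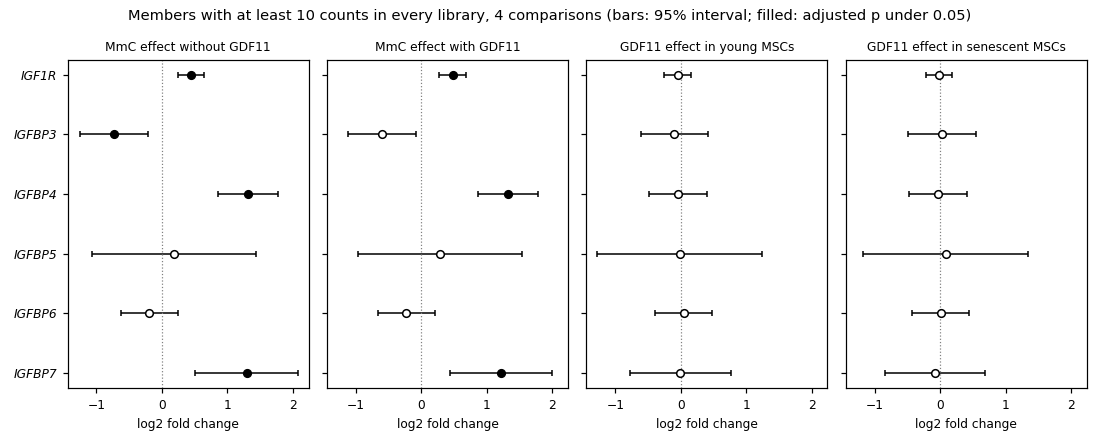
Points give the log2 fold change (x axis) of the 6 IGF members with at least 10 counts in every library (y axis) in 4 comparisons, bars the 95% interval, and filled points an adjusted p under 0.05 (edgeR's quasi-likelihood test). In both MmC comparisons IGF1R, IGFBP4 and IGFBP7 are filled and above 0, IGFBP3 is filled and below 0 without GDF11, and in the GDF11 comparisons all 6 points are open.

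The second comparison asked what GDF11 changed in young and in senescent cells. None of the 8 tested members passed in either, where 0% of all 19103 genes were called (edgeR's quasi-likelihood test). At an unadjusted p under 0.05, 226 genes (1.18%) passed in young and 96 (0.503%) in senescent cells, none of them a member. With limma-voom 0 genes passed in both, and with DESeq2 1 gene, no member, passed in young and 0 in senescent cells. No member's groups were free of overlap, against 0.890% of all genes in young and 0.503% in senescent cells. IGF1R was bounded most closely, with a GDF11 log2 fold change of -0.05 (95% interval -0.25 to 0.15) in young and -0.02 (-0.22 to 0.19) in senescent cells. For IGFBP4 the interval was -0.48 to 0.41 in young and -0.48 to 0.41 in senescent cells, for IGFBP3 -0.61 to 0.42 and -0.49 to 0.54, for IGFBP6 -0.39 to 0.48 and -0.43 to 0.44, and for IGFBP7 -0.77 to 0.76 and -0.84 to 0.69. Those of IGFBP5 reached past a 2-fold change either way, -1.27 to 1.24 and -1.17 to 1.34, as did those of the scarce IGF1, -2.79 to 1.62 and -1.63 to 1.88. The libraries of senescent cells count as paired by replicate number for this comparison. With the number as a block within each MmC arm, a choice made after the data were seen, the intervals in senescent cells narrowed to -0.16 to 0.14 for IGF1R, -0.13 to 0.19 for IGFBP3, -0.19 to 0.15 for IGFBP4, -0.17 to 0.26 for IGFBP5, -0.18 to 0.18 for IGFBP6 and -0.21 to 0.04 for IGFBP7, all spanning 0. That block again called 0 genes for GDF11 in senescent cells, with 246 at an unadjusted p under 0.05 and no member among them. The test of whether the MmC effect differed between cells with and without GDF11 called 0% of genes and no member (edgeR's quasi-likelihood test, 172 genes, 0.900%, at an unadjusted p under 0.05), and the interval of that difference was -0.63 to 0.64 for IGFBP4, -0.25 to 0.32 for IGF1R and -0.60 to 0.85 for IGFBP3. IGFBP3, called in 1 arm, is thus not shown to respond differently to MmC in the 2 arms. Nor is IGF1, whose call with GDF11 is no support, since it was tested through its MmC+ libraries.

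The replicate number, alone or jointly with MmC, carried much of what MmC did not. When the spread of log2 CPM over the 16 libraries was divided among its sources, as a description, MmC took 84.7% in IGFBP4, 81.4% in IGF1R, 61.8% in IGFBP7 and 55.3% in IGFBP3, but 40.4% in IGF1 and 11.1% in IGFBP6, where the median over all tested genes was 44.3%. In IGFBP5 MmC took 0.0710%, the replicate number 45.0% and the joint effect of MmC and replicate number 53.0%. That joint effect was 53.4% in IGF1, 49.0% in IGFBP6 and 23.5% in IGFBP3, with a median of 8.76% over all genes. GDF11 took at most 0.452% in any member, where the median of all genes was 0.618%. The replicate number alone took 1.97% in IGF1, 3.52% in IGFBP2, 5.14% in IGFBP4, 9.19% in IGF1R and 18.3% in IGFBP3. These lie under the median of 22.1% over all genes, whereas IGFBP6, at 29.3%, IGFBP7, at 34.9%, and IGFBP5 lie above it. By replicate number, the difference in log2 CPM of IGF1 between MmC+ and MmC- was -2.82 without and -1.40 with GDF11 in replicate 1 and from 2.79 to 4.24 in the other numbers. For IGFBP5 it was 1.98 and 2.13 in replicate 4 and from -1.10 to -0.29 in the others. Between libraries of the same number, IGF1R, IGFBP4 and IGFBP7 were higher after MmC in all 8 differences, while IGFBP3 was lower in 7 of 8. The scarce IGFBP2, tested through its MmC+ libraries, was also higher in all 8. With GDF11 the number does not count as a pairing for MmC. The share of all genes with such counts was not computed, so they mark nothing particular to the members. The labels place all libraries in 1 sequencing run, so no run can be compared within. The study mentions batch effects without saying which libraries they touch. In the MmC+ libraries replicate 1 also had the lowest MKI67, at 16.4 and 13.7 CPM, where the other MmC+ libraries had 37.4 to 49.8 CPM. Its part in the values of IGF1 was not tested.

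**Figure D4:**
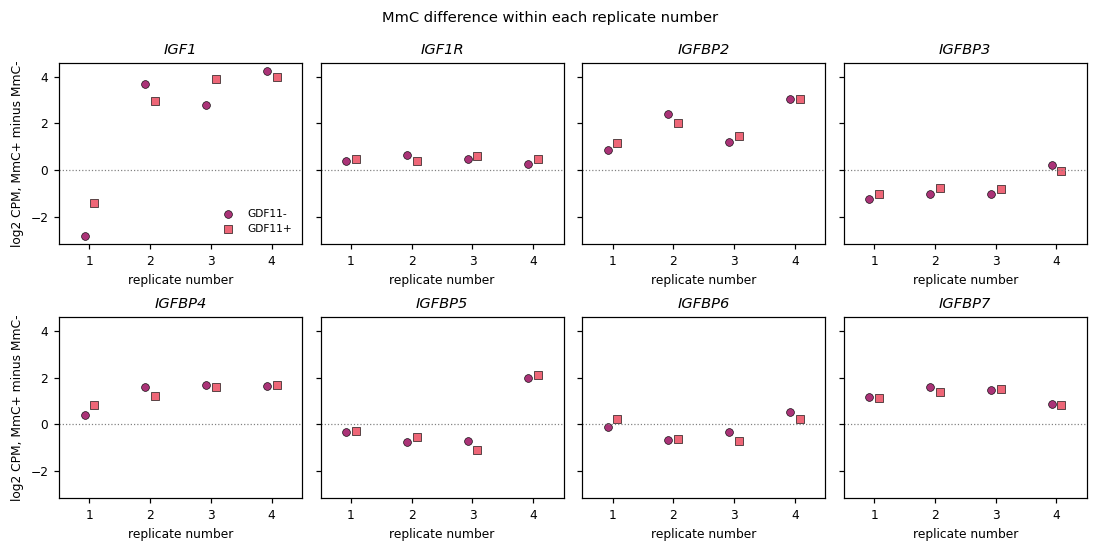
Each panel gives, for 1 IGF member, the log2 CPM of the MmC+ library minus that of the MmC- library of the same replicate number (y axis) for replicate numbers 1 to 4 (x axis), with circles for cells without and squares for cells with GDF11. The IGFBP4 and IGFBP7 points all lie above 0, and IGF1 in replicate 1 and IGFBP5 in replicate 4 lie on the other side of 0 from the rest.

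The other genes of the IGF system were taken from lists of receptors, docking proteins, proteases, carriers and IGF2-related genes, 33 in all. The lists were chosen with earlier results of these data known. The counts of calls here and for each list below are therefore only a description. Of the 33 genes, 22 had at least 10 counts in every library. Of these 22, 10 were higher, 6 lower and 6 not called after MmC without GDF11, with a median log2 fold change of 0.27. With GDF11, 10 were higher, 5 lower and 7 not called, with a median of 0.31. The shares called in all genes were 45.3% and 46.7%, as above. All tested genes include scarcer ones than these 22, so the shares are not a like measure. The 22 are thus not shown to be called more often than other genes. GDF11 gave 0 calls among the 22 in young and in senescent cells, as in all genes. A further 5 scarce genes passed the filter through some of their libraries and are not counted: GRB14, HTRA4, IGFALS, H19 and INSRR. For GRB14, HTRA4 and IGFALS these were the MmC+ libraries, a choice that favours a difference. The ratios given for them below describe the counts and are not a test.

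The largest increases among the 22 were in STC1 and PAPPA, followed by ESM1. PAPPA (ENSG00000182752.10, chr9:116153791-116402321), the secreted metalloprotease whose best known substrate is IGFBP4, had 29.2, 11.9, 16.6 and 19.3 CPM in MmC-/GDF11- and 450.1, 380.0, 369.9 and 281 CPM in MmC+/GDF11- cells. With GDF11 it had 32.7, 14.1, 14.2 and 17.7 CPM in young and 394, 347, 391 and 279.9 CPM in senescent cells, and no library of one kind came near the other. The rise was 4.27 (SE 0.321, adjusted p = 2.01e-07) and 4.16 (SE 0.319, adjusted p = 2.28e-07) on the log2 scale. PAPPA-AS1 covers 21.1% of its exonic bases from the other strand, with 0 to 35 counts against 1049 to 57302 for PAPPA. STC1, a stanniocalcin that inhibits PAPPA, rose from 4.51, 10.7, 11.2 and 16.0 CPM in MmC-/GDF11- to 109, 529, 523 and 571 CPM in MmC+/GDF11- cells. The values with GDF11 were 4.68, 9.82, 9.50 and 16.9 CPM in young and 104, 475, 568 and 582 CPM in senescent cells, with replicate 1 the lowest in every group and no overlap. Its log2 fold changes were 5.35 (SE 0.669, adjusted p = 1.85e-05) and 5.40 (SE 0.671, adjusted p = 1.70e-05). STC2, the other stanniocalcin that inhibits PAPPA, had 193, 156, 169.9 and 125 CPM in MmC-/GDF11- and 273, 218, 218 and 247 CPM in MmC+/GDF11- cells, and 191, 172, 167 and 147 and 279, 207, 193 and 255 CPM with GDF11. It rose by 0.57 (adjusted p = 0.00409) and 0.46 (adjusted p = 0.0141) on the log2 scale, again without overlap. With replicate 4 left out of all groups the call of STC2 with GDF11 was lost (log2 fold change 0.38, adjusted p = 0.0713). Protease, substrate and inhibitors thus were all higher in senescent cells at the level of RNA, and the cleavage itself was not measured.

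**Figure D5:**
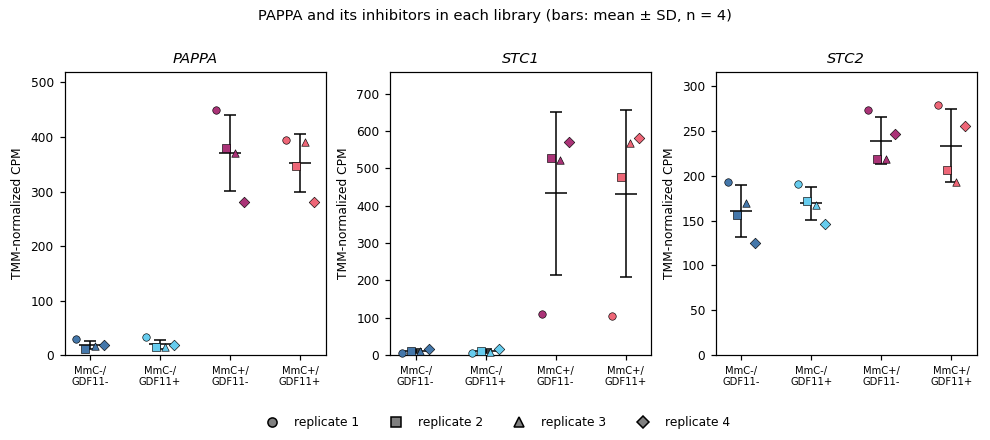
Panels plot TMM-normalized CPM (y axis, from 0) of PAPPA, STC1 and STC2 in the 16 libraries by group (x axis), with a marker shape for each replicate number and bars for the mean ± SD (n = 4). PAPPA lies at 11.9 to 32.7 CPM in MmC- and 279.9 to 450.1 CPM in MmC+ libraries, and STC1 at 4.51 to 16.9 and 104 to 582 CPM.

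Of the 8 well counted proteases and inhibitors, 4 were higher, 3 lower and 1 not called without GDF11, and 4 were higher, 2 lower and 2 not called with it. PAPPA2, which cleaves IGFBP3 and IGFBP5, rose by 1.53 and 1.69 (adjusted p = 0.0329 and 0.0208) from 0.715 to 4.96 CPM to 4.51 to 8.82 CPM. HTRA4, a serine protease, had 0 to 7 counts in young and 11 to 21 in senescent libraries, and the ratio of its summed counts, scaled by library size, was 5.57 (2.92 to 11.7) without and 2.37 (1.41 to 4.14) with GDF11 (exact 95% interval, counting error only). HTRA1, a serine protease of the same family, fell by 0.61 and 0.44 on the log2 scale (adjusted p = 0.00612 and 0.0351), and the metalloprotease ADAM12, which cuts IGFBP3 and IGFBP5, fell by 0.80 and 0.73 (adjusted p = 0.000655 and 0.00120). HTRA3 was called lower without GDF11 at a log2 fold change of -1.03 (adjusted p = 0.0145), and with GDF11 it was -0.59 (adjusted p = 0.139).

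Of the 6 well counted receptors and docking proteins among 9 listed, 4 were higher, 1 lower and 1 not called in both arms. INSR, the insulin receptor, rose by 0.54 and 0.70 on the log2 scale without and with GDF11 (adjusted p = 0.00318 and 0.000475), about as much as IGF1R. IGF2R, which takes up IGF2 and carries it to the lysosome, rose by 0.91 and 0.92 (adjusted p = 5.15e-05 and 4.92e-05), from 139 to 197 CPM in MmC- to 281 to 409.8 CPM in MmC+ libraries. The docking proteins that link these receptors to PI3K, IRS1 and IRS2, rose by 0.82 and 0.80 (adjusted p = 0.0279 and 0.0312) and by 1.46 and 1.61 (adjusted p = 4.25e-05 and 1.87e-05). Of the adaptors that bind the activated receptors, GRB10 fell by 0.47 and 0.54 (adjusted p = 0.000588 and 0.000170), while GRB14 had 3 to 9 counts in young and 11 to 48 in senescent libraries. Its ratios were 2.57 (1.64 to 4.12) and 2.46 (1.62 to 3.83), on the same terms as for HTRA4.

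Of the 4 well counted carriers and binding protein receptors, 1 was higher, 1 lower and 2 not called in both arms. ESM1, a secreted proteoglycan of endothelial cells, rose by 4.02 and 3.71 on the log2 scale (adjusted p = 1.25e-05 and 2.24e-05), from 2.85 to 4.43 CPM to 21.0 to 95.8 CPM. The endothelial markers PECAM1 and VWF also rose after MmC and CDH5 fell, as given above, and their part was not tested. IGFALS, which holds IGF and IGFBP3 in a complex in blood, had 2 to 8 counts in young and 11 to 32 in senescent libraries, with ratios of 2.58 (1.58 to 4.37) and 4.97 (2.76 to 9.72). KAZALD1, related to the binding proteins, fell by 0.66 and 0.67 (adjusted p = 0.00353 and 0.00286). Among the genes of the IGF2 locus and the proteins that bind IGF2 mRNA, IGF2BP3 fell by 0.75 and 0.69 (adjusted p = 7.35e-06 and 1.47e-05), and H19, IGF2BP1 and IGF2BP2 were not called. The growth hormone receptor GHR, upstream of IGF1 in the liver, was called higher from 0.414 to 1.03 CPM to 0.816 to 2.19 CPM (adjusted p = 0.0360 and 0.0423), while GH1 and INS had 0 counts in all 16 libraries.

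Each library was left out in turn. No call of PAPPA, STC1, STC2, ESM1, IGF2R, INSR, IRS2, GRB10, ADAM12, KAZALD1 or IGF2BP3 was lost. IRS1 lost its call without GDF11 when any 1 of replicates 1 and 2 of MmC-/GDF11- and replicates 2, 3 and 4 of MmC+/GDF11- was left out (adjusted p 0.0573 to 0.0751). IRS1 lost its call with GDF11 when any 1 of replicates 1, 2 and 3 of MmC-/GDF11+ and replicates 3 and 4 of MmC+/GDF11+ was left out (adjusted p 0.0607 to 0.0920). GHR lost its call without GDF11 when any 1 of replicates 2, 3 and 4 of MmC-/GDF11- and replicates 1 and 4 of MmC+/GDF11- was left out (adjusted p 0.0618 to 0.141). GHR lost its call with GDF11 when any 1 of replicate 3 of MmC-/GDF11-, replicates 2, 3 and 4 of MmC-/GDF11+ and replicates 1 and 3 of MmC+/GDF11+ was left out (adjusted p 0.0506 to 0.155). PAPPA2 lost its call without GDF11 when any 1 of replicates 2, 3 and 4 of MmC-/GDF11- and replicates 1 and 4 of MmC+/GDF11- was left out (adjusted p 0.0623 to 0.0924). PAPPA2 lost its call with GDF11 when any 1 of replicates 2, 3 and 4 of MmC-/GDF11+ was left out (adjusted p 0.0570 to 0.0613). HTRA1 lost its call with GDF11 when any 1 of replicates 1, 2 and 3 of MmC-/GDF11+ and replicates 2, 3 and 4 of MmC+/GDF11+ was left out (adjusted p 0.0561 to 0.126). HTRA3 lost its call without GDF11 when replicate 1 of MmC-/GDF11- was left out (adjusted p 0.0700). SHC1 passed without GDF11 when either replicate 4 of MmC+/GDF11- or replicate 1 of MmC+/GDF11+ was left out (adjusted p 0.0339 to 0.0461), and LRP1 when replicate 1 of MmC-/GDF11- was (adjusted p 0.0275). With the replicate number as a block, which counts as a pairing in this comparison, SHC1 (adjusted p = 0.0161), LRP1 (0.0431) and TMEM219 (0.0192) passed without GDF11.

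The genes whose log2 CPM followed a member most closely over the 16 libraries were sought among 13140 tested genes with a mean of at least 1 CPM. The libraries share the MmC grouping and the replicate numbers, so the coefficients describe these libraries only. Closest to IGFBP4 were PTGES (Pearson's r = 0.984), RELB (0.981) and NFKB2 (0.981). IGFBP7 was followed by LGMN (0.987), MRAS (0.979) and MVB12B (0.978), and IGF1R by the long noncoding RNA ENSG00000260077 (0.973), NEK9 (0.971) and NPTXR (0.970). For IGFBP3 they were ADH1C (0.957), ZNF521 (0.932) and RSPO2 (0.928), and for IGFBP5 CD34 (0.907), PLPP1 (0.870) and TNFRSF11B (0.864). IGFBP6 was nearest to TMEM42 (0.928), PEX11G (0.901) and GPX4 (0.894). The scarce IGF1 lay nearest to MIA2 (0.958), CEBPG (0.948) and ZNF281 (0.946), and IGFBP2 to CCDC18-AS1 (0.947), IQCN (0.932) and PLD1 (0.931).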

How the data were processed

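Poly(A) RNA of ASC52telo MSCs was sequenced as paired reads from a directional library kit in 16 libraries of 4 groups. Per the labels and the study's methods, the authors used HISAT2 2.2.1 for alignment to hg38 and featureCounts 2.0.1 with the GENCODE V38 annotation for counting. The deposited values are raw counts per gene. The strand setting, the counting of pairs and the handling of reads with several alignments are not given in the sources used here. The sample titles gave the group and replicate number. Symbols, positions and exon lengths came from GENCODE v44, where 186 identifiers had no match. Overlap with other genes was measured on its exons, and the share of exonic words of 31 bases found on the 261 alternate contigs was at most 5.04% in any member.

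The test was the robust quasi-likelihood test of edgeR 4.0.16 (R 4.3.3) with a mean for each group over all 16 libraries, TMM scaling and the filter filterByExpr (at least 10 counts, 15 in total). P-values were adjusted by Benjamini and Hochberg over 19103 genes, with a threshold of 0.05. The members, the lists of related genes and the tests were chosen with earlier results of these data known. The rule for named genes took the 10 members, the listed IGF system genes that passed in either MmC comparison, and per tested member the 3 genes with the highest correlation of log2 CPM (prior count 2). Summed low counts were compared by an exact conditional interval at 95%. The steps were tested on simulated counts. One further haematopoietic marker is not reported here.

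Whether replicate numbers pair the libraries was checked by the correlation across genes of the deviations from the group means. Its lowest value over 4 pairs was 0.113 (MmC without GDF11) and 0.448 (GDF11, senescent cells), and the libraries of these comparisons count as paired. It was 0.0293 (MmC with GDF11) and 0.0982 (GDF11, young cells), and those do not. The values 0.113 and 0.0982 lie close together, so the line between them is thin. The main tests used no pairing in any comparison. The alternatives were RLE and upper-quartile scaling, 2 other filters, only the compared libraries, the replicate number as a block, limma-voom 3.58.1, DESeq2 1.42.0, a test against 2-fold (glmTreat), each library left out, and replicate number 1 left out. A block within each MmC arm and leaving out replicate number 4 were added after the data were seen.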

Additional observations from a re-analysis of the deposited data

Results flagged for a closer look

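In groups of 4, a library was singled out where its gap to the nearest other library, divided by the range of the group, exceeded the 95% critical value of Dixon's test. Of 140 groups of libraries examined for the members and the listed IGF system genes, 13 held such a library. The critical value allows about 1 in 20 for independent, normally distributed values. These groups share the same libraries, and the share over all genes was not computed, so the 13 are not shown to be an excess. Replicate 1 was the library in 9 of the 13, replicate 4 in 3 and replicate 2 in 1, and no replicate 3 was among them.

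Of the members, IGF1 in MmC-/GDF11+ cells had 0.361 CPM in replicate 1, and the nearest library had 0.0805 CPM. IGFBP7 in the same group had 399.9 CPM in replicate 1, against 211 in the nearest. Both are the highest of their group.

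Replicate 1 of MmC+/GDF11- cells was the lowest for IRS1 (64.7 against 117 CPM) and for STC1 (109 against 523 CPM) and the highest for ADAM12 (187 against 131 CPM). In MmC-/GDF11- cells replicate 1 was the highest for IRS2 (1.49 against 0.901 CPM) and IGFALS (0.104 against 0.0578 CPM). GHR was highest in replicate 1 of MmC-/GDF11+ (0.987 against 0.525 CPM) and of MmC+/GDF11+ cells (2.01 against 1.03 CPM). Replicate 4 was the lowest for HTRA1 in MmC+/GDF11+ (195 against 248 CPM) and for HTRA4 in MmC+/GDF11- cells (0.127 against 0.190 CPM), and the highest for IGF2BP3 in MmC-/GDF11+ cells (46.0 against 40.7 CPM). Replicate 2 of MmC-/GDF11- cells was the lowest for ADAM12 (195 against 257 CPM).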

How the results depend on the processing

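No called value changed sign under any alternative run. Of 1082 recomputed values of the 8 tested members, 1047 stayed on the same side of the threshold, 25 lost a call and 10 gained one. These include the GDF11 comparisons and the interaction, where no member was called. Uncalled values could change sign, as that of IGFBP5 after MmC without GDF11 did, at -0.29 to 0.67 over single libraries left out. In numbers of genes called for MmC without and with GDF11, 8655 and 8926, most alternatives stayed within 1.5 times. Leaving out 1 library gave 7602 to 9159 and 7742 to 9405 genes. In each arm 4 to 7 members were called, of those tested then, and 3 to 4 of the 6 well counted members. Counts above 4 include scarce members that were tested through their MmC+ libraries. A test against a change of more than 2-fold left 1294 and 1235 genes, with 0 and 1 member called (IGFBP2 with GDF11, tested through its MmC+ libraries). With at least 10 counts required in every library, 3 members were called with GDF11 in place of 5, since IGF1 and IGFBP2 were not tested. For GDF11 in young cells, where 0 genes were called, DESeq2 called 1, and leaving out 1 library gave 0 to 1, the 1 without replicate 2 of MmC-/GDF11+. The counts for GDF11 in senescent cells and for the interaction stayed at 0 under every alternative run.

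IGF1 with GDF11 was tested through its MmC+ libraries, so none of its p-values here is support for a rise. It lost its call with no filter (adjusted p = 0.0945), limma-voom (0.0905), the replicate block (0.0732) and without replicate number 4 (0.160). Over single libraries left out its adjusted p ran from 0.0138 to 0.0814. IGFBP3 without GDF11 lost its call with no filter (0.0702). With GDF11 it gained one with the replicate block (0.0133), limma-voom (0.0334) and DESeq2 (0.0405). The replicate number does not count as a pairing for MmC with GDF11. The block also gives each number the same effect in all 4 groups. It leaves out the joint effect of MmC and replicate number, 53.4% of the spread in IGF1 and 23.5% in IGFBP3. Of the other IGF system genes, IRS1 lost its call with no filter (0.0925 without, 0.0953 with GDF11), and with GDF11 also with limma-voom (0.0514) and without replicate number 4 (0.0503). PAPPA2 lost it with no filter (0.0984 and 0.0665) and without replicate number 4 (0.126 and 0.109), and GHR without replicate number 4 (0.148 and 0.101) and, with GDF11, with no filter (0.0571). HTRA1 with GDF11 lost it with upper-quartile scaling (0.0599), at least 10 counts in every library (0.0586) and without replicate number 4 (0.0622). HTRA3 without GDF11 lost it with no filter (0.0508) and without replicate number 1 (0.124), and with GDF11 it gained one without replicate number 4 (0.0102). SHC1, LRP1 and IGF2BP2 gained calls under some settings (adjusted p from 0.0111 to 0.0495). The causes were not tested.

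The replicate block called 11066 and 11267 of 19103 genes for MmC without and with GDF11, and 0 for GDF11. It called 5 of the 8 tested members in each MmC comparison, among them IGFBP2, which was tested through its MmC+ libraries. These member counts are no sign that the members differ from other genes. In the paired comparison, MmC without GDF11, the block changed the call of no member. There it added SHC1 (adjusted p = 0.0161), TMEM219 (0.0192) and LRP1 (0.0431). A block within each MmC arm also called 0 for GDF11 and for the interaction. Per kb of the longest transcript, IGFBP3 came to 548, 512, 331 and 338 CPM per kb and IGF1R to 2.77, 2.68, 3.77 and 3.73 in the 4 groups in the order of the opening. Depth limits IGF2, IGFBP1, IGFBP2 and IGF1 in young cells, which lie at 0 to 49 counts.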
